A study of Mus musculus with 25 samples.

Results

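Runx, Bcl11 and Ikaros factors are zinc finger or Runt domain DNA-binding proteins that set lymphoid identity, and their transcripts were measured here in 8 sorted populations of mouse group 1 innate lymphoid cells (G1-ILCs). The rows of the count matrix whose Ensembl identifiers map to Runx1, Runx2, Runx3, Cbfb, Bcl11a, Bcl11b, Ikzf1, Ikzf2, Ikzf3 and Ikzf5 were taken, which are 10 of 46078 genes. All 10 passed the filter on low counts, and 9 of them had a count in every library, Bcl11a being the exception.

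The cells came from wild-type C57BL/6 mice and were sorted as CD3-NK1.1+NKp46+ cells by CD49a, CD49b, CD27 and IL-7R. LPL ILC1s (4 libraries) were CD27+IL-7R+ cells of the small intestinal lamina propria, and SG G1-ILCs (2) were CD49a+CD49b+ cells of the salivary glands. FL G1-ILCs (4) had intermediate CD49a and CD49b and came from the fetal liver at E18.5, shortly before birth. In adult liver (AL), 7R+ ILC1s (3) and 7R- ILC1s (4) were both CD49a+ with low CD49b and differed in IL-7R, the interleukin-7 receptor. BM iILC1s (3), immature ILC1s of the bone marrow, had the same CD49a and CD49b gate. BM NK cells (3) and AL NK cells (2) were CD49a-CD49b+. Adult mice were 8 weeks old, and the labels name no treatment or mutation and give neither the sex nor whether animals were pooled. Per the study's methods, mice received a nanobody that blocks ARTC2.2 before sacrifice in several experiments. Whether the mice of these libraries did is not stated. The study describes its RNA-seq libraries as biological replicates, and the p-values measure the spread between them.

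Libraries held 2302643 to 7995906 counts (median 4603579). The counts of FL G1-ILC replicates 2 and 3 gave a chi-square of 1.177 per degree of freedom, slightly above sampling noise, against 3.505 to 12.4 in the other 28 pairs of replicates. These libraries were summed and counted as 1 sample, which left 24 samples, so that n is 3 for FL G1-ILCs. Il7r, which encodes the receptor used in the sort, was at 486 to 582 CPM (counts scaled to the TMM-adjusted library total) in AL 7R+ ILC1s, against 0.579 to 4.27 CPM in AL 7R- ILC1s. Itga2 (CD49b) was at 10.2 and 12.9 CPM in SG G1-ILCs although their gate was CD49b+, against 119.6 and 123 CPM in AL NK cells. BM iILC1s carried the T cell marker Cd3e at 121 to 169 CPM and summed myeloid markers at 173 to 1454 CPM, and LPL ILC1s carried Il22, a cytokine gene of ILC3s, at 22.9 to 192 CPM. In bulk samples such as these, fewer cells of a type and less RNA per cell cannot be told apart.

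Runx1, Runx2 and Runx3 bind DNA through the Runt domain as partners of CBFβ, the product of Cbfb, which binds no DNA itself but raises their affinity. Runx3 is known for silencing Cd4 in the CD8 T cell lineage and for its place in NK cell and ILC1 maturation, Runx1 for hematopoietic stem cells and early lymphopoiesis, and Runx2 for bone formation. Bcl11b is required for commitment to the T cell lineage and is also used by ILC2s, whereas Bcl11a serves B cells, plasmacytoid dendritic cells and the silencing of fetal globin. Ikaros (Ikzf1), Helios (Ikzf2), Aiolos (Ikzf3), Eos (Ikzf4) and Pegasus (Ikzf5) share C-terminal zinc fingers through which they pair, and they recruit the NuRD and Sin3 corepressor complexes.

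The genes of the Runx family share a short stretch at their promoters, shown here because it carries the binding motif of the family's own proteins. Promoters of 250 bases before to 50 bases after the start site were taken from RefSeq (GRCm38.p6, 5′ to 3′ on the strand of the gene) for 8 of the 10 genes, 11 promoters in all. The hexamer TGTGGT, or ACCACA on the other strand, occurred in 5506 of 32851 promoters of all genes (16.8%) and in 3 of the 11. In each of these 3, a pair of copies began 8 bases apart on 1 strand, an arrangement seen after the sequences were read and found in 7 of the 32851 promoters (0.0213%). The 24 bases around each pair are given with both copies in capitals:
Runx1, chr16:92826028-92826051, minus strand: aaacaACCACAgaACCACAagttg
Runx2, chr17:44814586-44814609, minus strand: aaacaACCACAgaACCACAagtgc
Runx3, chr4:135120506-135120529, plus strand: cctcaACCACAgaACCACAaggcc
In Runx1 and Runx2 the pairs begin 28 and 23 bases after the start site, in the transcribed leader, and in Runx3 the pair begins 134 bases before it. These are the distal promoters of Runx1 and Runx3, and the second RefSeq promoter of each holds no copy. A match is a description of the letters and not a measured binding site.

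Across the groups, the 10 genes fell into those that varied widely and those that varied little. The highest group mean was 48.4 times the lowest for Ikzf2, 15.5 times for Bcl11b, 13 times for Runx2, 5.14 times for Ikzf1 and 2.7 times for Runx3. For Ikzf5, Runx1, Cbfb and Ikzf3 this ratio was 1.75, 1.71, 1.56 and 1.37. Bcl11a, with a ratio of 20.4, was near the limit of detection throughout. In the test for any difference among the 8 groups, 9 of the 10 were called at an adjusted p under 0.05 in edgeR's quasi-likelihood test with Benjamini-Hochberg adjustment over 14123 genes, where 77.7% of all genes tested were called. Ikzf5 was not (adjusted p = 0.166), but was called with no filter on low counts (0.00829) and without AL NK replicate 2 (0.0431). Ikzf3 was not called without AL NK replicate 1 (adjusted p = 0.0652) or with no filter on low counts (0.0777), and neither was Cbfb without FL G1-ILC replicate 1 or 2 (adjusted p = 0.0518 and 0.0513).

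**Figure D1:**
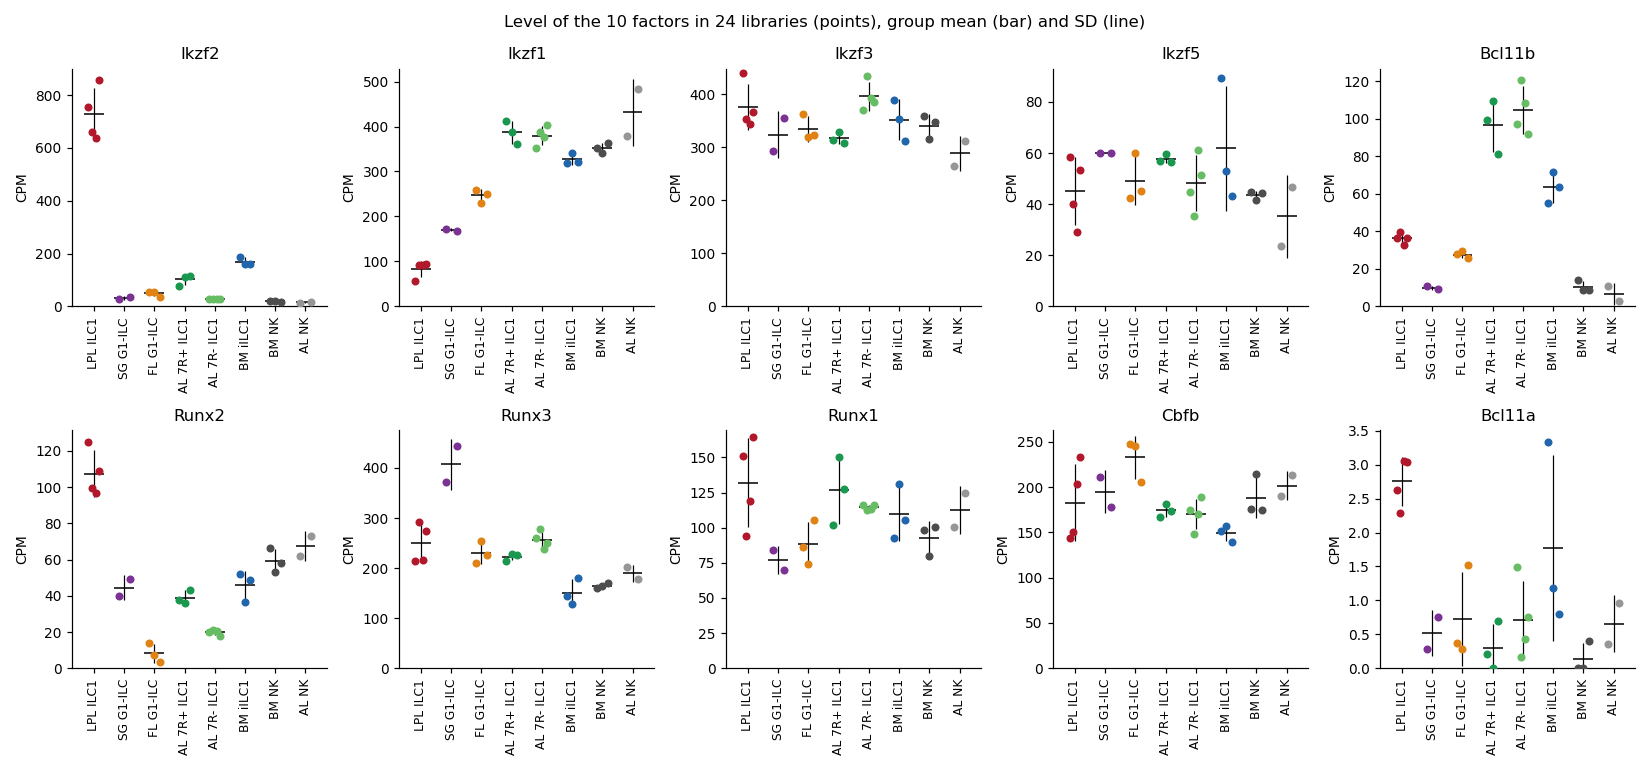
Level of each of the 10 genes (CPM, linear axis from 0) in the 24 samples of 8 groups, with 1 point a sample, a bar for the group mean and a line for the SD, clipped at 0. Ikzf2 stands at 637 to 858 CPM in LPL ILC1s and under 200 CPM elsewhere, while Ikzf3, Cbfb and Runx1 lie within a narrow band in all groups.

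Among the Ikaros genes, Ikzf2 (Helios; chromosome 1, 69531214 to 69687245) was the most variable. It had 755, 660.5, 637 and 858 CPM in LPL ILC1s, with 188, 159 and 159 CPM next in BM iILC1s. AL 7R+ ILC1s followed at 78.0, 113 and 115 CPM. FL G1-ILCs had 54.3, 55.6 and 37.4 CPM, SG G1-ILCs 26.8 and 36.6 CPM, and AL 7R- ILC1s 27.3, 26.6, 28.5 and 26.1 CPM. BM NK cells had 21.3, 21.6 and 17.6 CPM and AL NK cells 12.8 and 17.3 CPM. All neighbours in this order were separated with no overlap of samples except SG G1-ILCs and AL 7R- ILC1s, so that 6 of 7 steps were clean. The 3 populations with high Il7r transcript, LPL ILC1s, BM iILC1s and AL 7R+ ILC1s, held the 3 highest levels.

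Ikzf1 (Ikaros; chromosome 11, 11685003 to 11772926), the founding member of the family, was lowest where Ikzf2 was highest, in LPL ILC1s, at 57.2, 92.6, 92.5 and 93.4 CPM, followed by SG G1-ILCs at 173 and 168 CPM and FL G1-ILCs at 259.5, 231 and 249.9 CPM. The other groups lay between 318 and 485 CPM, with means of 327 ± 11.8 CPM in BM iILC1s, 387 ± 25.1 CPM in AL 7R+ ILC1s, 380.0 ± 21.9 CPM in AL 7R- ILC1s, 352 ± 10.6 CPM in BM NK cells and 432 ± 74.8 CPM in AL NK cells (SD, n as above). The LPL, SG and FL groups thus each stood apart from one another and from all the others, and among the remaining groups BM NK cells, both AL ILC1 subsets and AL NK cells overlapped with their neighbours.

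Ikzf3 (Aiolos; chromosome 11, 98464902 to 98546031), a partner of Ikaros in mature lymphocytes, was high and nearly flat, with group means of 289 to 396 CPM and every group overlapping its neighbours in the order. Ikzf5 (Pegasus; chromosome 7, 131388652 to 131410521) lay at group means of 35.3 to 61.9 CPM. Up to 81.3% of its exonic bases are overlapped by an annotated antisense gene, and since the strand setting of the counting is not given in the sources used here, reads of Ikzf5 and of its antisense neighbours Pstk and Gm44624 cannot be told apart. Pstk itself had 9.18 to 30.9 CPM. Ikzf4 (Eos), the fifth gene of the family and not among the 10, had 0 to 27 counts a library and at most 5.05 CPM.

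Divided by exon length, so that genes can be set against each other, the summed Ikaros transcripts were 128 ± 12.3 CPM per kb in LPL ILC1s, 79.7 ± 5.10 in SG G1-ILCs and 93.8 ± 4.07 in FL G1-ILCs (SD, n = 4, 2 and 3), and 109 to 122 on average in the other groups. The sum was thus lower in SG and FL G1-ILCs than in every sample of the other groups, and its makeup differed as well. LPL ILC1s drew 48.8% ± 2.33 of it from Ikzf2, BM iILC1s drew 11.9% ± 0.617, AL 7R+ ILC1s drew 7.20% ± 1.58, and the other groups 1.12% to 4.50% on average. Ikzf1 made up 11.5% ± 2.98 in LPL ILC1s, against 37.1% to 64.9% on average in the other groups. The ratio of Ikzf2 to Ikzf1 in CPM was 6.89 to 13.2 in LPL ILC1s and 0.467 to 0.591 in BM iILC1s. It was 0.189 to 0.318 in AL 7R+ ILC1s, against 0.0338 to 0.0356 in AL NK cells.

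**Figure D2:**
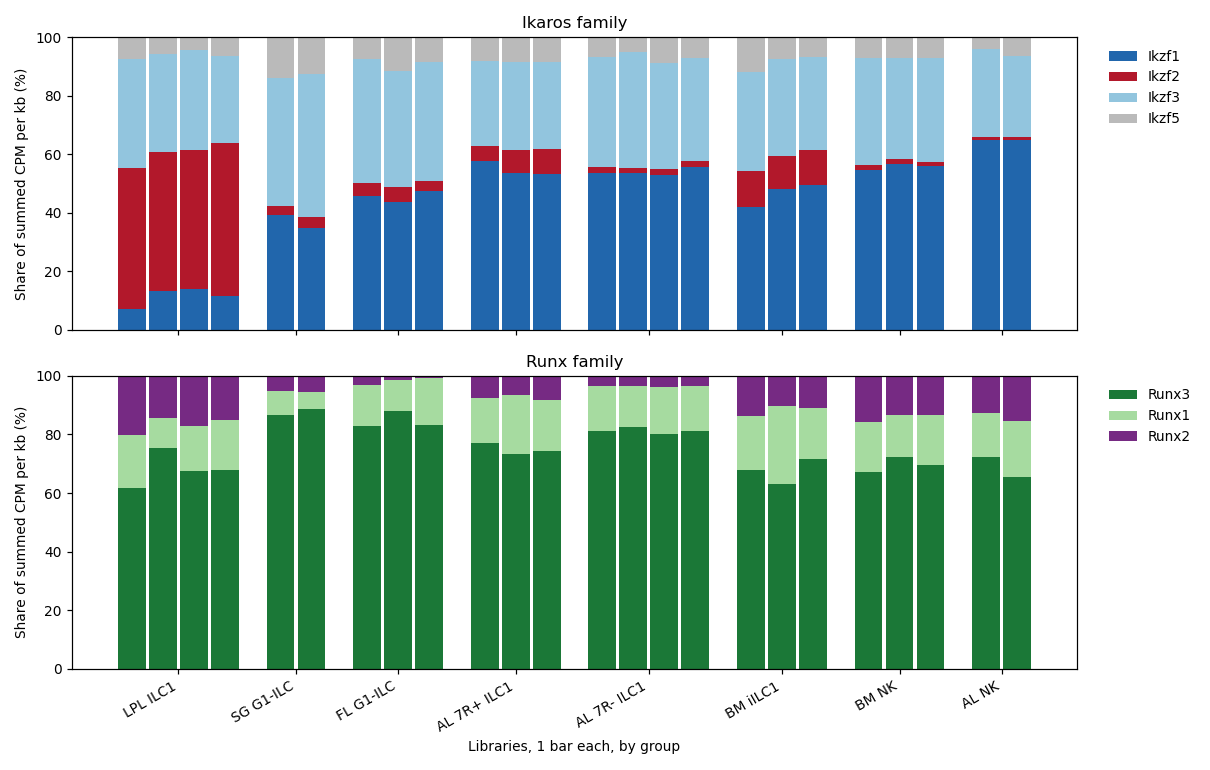
Makeup of the Ikaros (top) and Runx (bottom) transcripts in each of 24 samples, as the percent of the family's summed CPM per kb, 1 bar a sample, grouped by population. Ikzf2 takes 47.3% to 52.3% of the Ikaros sum in LPL ILC1s and Ikzf1 at most 13.9%, while Runx3 takes 61.6% to 88.6% of the Runx sum in every sample.

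Bcl11b (chromosome 12, 107910403 to 108003602), the T cell commitment factor, separated the ILC1s of liver and marrow from NK cells. AL 7R+ ILC1s had 99.2, 109.7 and 81.3 CPM and AL 7R- ILC1s 97.2, 121, 108 and 92 CPM, and BM iILC1s had 55.2, 71.5 and 63.9 CPM. LPL ILC1s had 36.5, 39.9, 32.5 and 36.6 CPM and FL G1-ILCs 27.7, 29.4 and 25.9 CPM. The lowest levels were in SG G1-ILCs with 10.7 and 9.10 CPM, BM NK cells with 13.8, 8.85 and 8.90 CPM and AL NK cells with 10.8 and 2.64 CPM. The 2 AL ILC1 subsets overlapped at the top and the SG and NK groups at the bottom, and each group between them stood apart from its neighbours.

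Because Bcl11b is a T cell gene, a list of 10 T cell markers was set beside it. Cd3e, Cd5 and Cd6 were at 0 to 0.691 CPM in AL 7R+ ILC1s, where Bcl11b was at 81.3 CPM or more. In AL 7R- ILC1s Cd3e was at 6.24 to 34.4 CPM, and Cd5 and Cd6 were at 0 to 0.754 CPM. In BM iILC1s all 3 were present, with Cd3e at 121 to 169 CPM, Cd5 at 2.55 to 14 CPM and Cd6 at 9.23 to 17.0 CPM. Their part in the Bcl11b level there was not tested. Of the other markers, Cd8a averaged 12.55 CPM in AL 7R- ILC1s and 0.206 CPM in AL 7R+ ILC1s, against 0.210 CPM in AL NK cells. Cd4 averaged 3.18 CPM in AL 7R- ILC1s and 6.16 CPM in AL 7R+ ILC1s, against 0.300 CPM in AL NK cells. The part of cells with these transcripts in the liver Bcl11b levels was not tested. The whole T cell list summed to 1642 to 1848 CPM in LPL ILC1s, 1248 to 1310 in AL 7R+ ILC1s, 1341 to 1506 in AL 7R- ILC1s and 1341 to 1604 in BM iILC1s, against 639 to 746 in BM NK cells and 567 to 623 in AL NK cells. Most of each sum was Trbc1 and Trbc2, the constant regions of the T cell receptor beta chain. The list summed to 1114 to 1202 CPM in FL G1-ILCs and to 557 and 561 CPM in SG G1-ILCs.

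**Figure D3:**
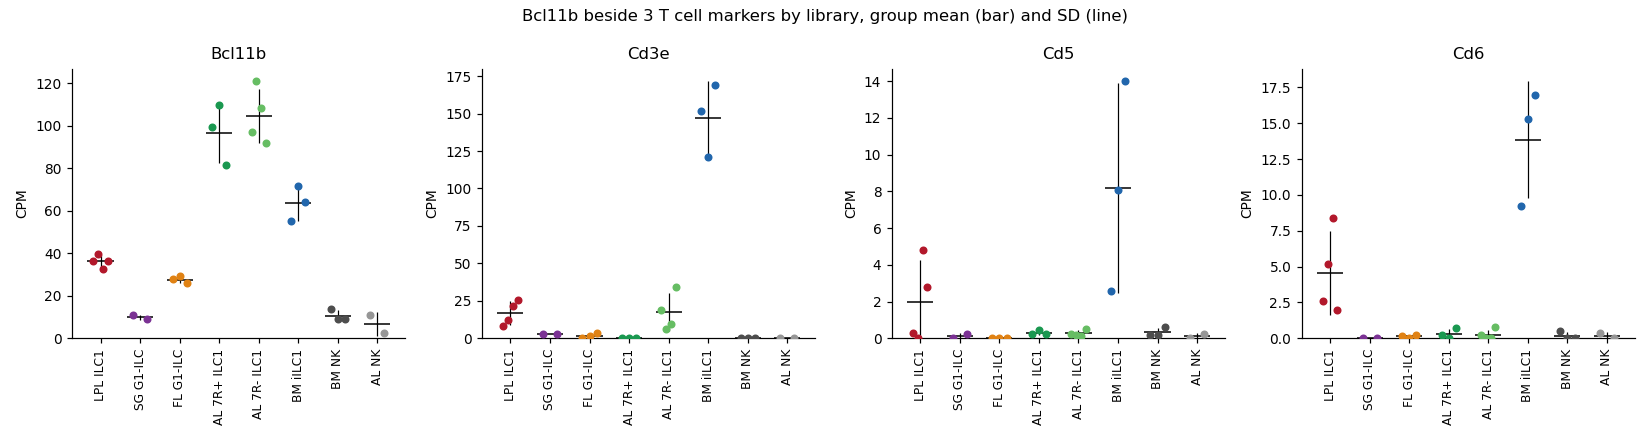
Bcl11b beside the T cell markers Cd3e, Cd5 and Cd6 (CPM, each on its own linear axis from 0) in 24 samples of 8 groups, with 1 point a sample, a bar for the mean and a line for the SD, clipped at 0. Bcl11b is highest in the AL ILC1 subsets, whereas Cd5 and Cd6 are highest in BM iILC1s and at most 0.754 CPM in the AL ILC1 subsets.

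Bcl11a (chromosome 11, 24078056 to 24174123), a factor of B cells and plasmacytoid dendritic cells, was close to the limit of detection, with 0 to 17 counts a library. LPL ILC1s had 9, 8, 12 and 11 counts (2.62, 2.29, 3.05 and 3.05 CPM), the only group in which every library held more than 7. BM iILC1s had 17, 6 and 4 counts (3.34, 1.18 and 0.799 CPM) and BM NK cells 0, 0 and 2 counts. The other groups had 0 to 7 counts a library and at most 1.52 CPM.

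In the Runx family, Runx2 (chromosome 17, 44495987 to 44814797), the osteoblast regulator, varied most across the groups. LPL ILC1s had 125, 99.2, 96.8 and 109 CPM, and NK cells came next with 66.5, 53.3 and 58.1 CPM in BM and 61.7 and 73.1 CPM in AL. BM iILC1s had 51.8, 36.7 and 48.5 CPM, SG G1-ILCs 39.8 and 49.3 CPM, and AL 7R+ ILC1s 37.8, 35.8 and 43.4 CPM. AL 7R- ILC1s had 19.9, 21.1, 20.4 and 17.8 CPM, and FL G1-ILCs 14, 7.09 and 3.69 CPM. The top group and the bottom 2 stood clear of their neighbours, as did the NK cells from the BM iILC1s, and BM iILC1s, SG G1-ILCs and AL 7R+ ILC1s overlapped with one another.

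Runx3 (chromosome 4, 135120652 to 135177990) was highest in SG G1-ILCs, at 371 and 443 CPM, above all other samples (128 to 293 CPM). AL 7R- ILC1s had 260.2, 277, 239 and 249.5 CPM, LPL ILC1s 215, 293, 217 and 275 CPM, FL G1-ILCs 211, 255 and 226 CPM and AL 7R+ ILC1s 215, 228 and 226 CPM, each overlapping the next. AL NK cells had 201 and 178 CPM, and both marrow groups were lowest, BM iILC1s at 144, 128 and 180.3 CPM and BM NK cells at 161, 164 and 170.0 CPM. Runx1 (chromosome 16, 92601466 to 92826149) had group means of 77.2 to 132 CPM and Cbfb (chromosome 8, 105170674 to 105217989) of 149 to 233 CPM, with every group of either gene overlapping its neighbours in the order. Per kb, Runx3 was the main Runx transcript in all groups, from 67.5% ± 4.35 of the Runx sum in BM iILC1s to 87.6% ± 1.44 in SG G1-ILCs (SD, n = 3 and 2). The length used is that of all annotated exons merged, not of the transcripts expressed. In CPM without this division, BM iILC1 replicate 2 had Runx3 at 128 and Runx1 at 131. Cbfb, the shared partner, had 42.9 to 66.9 CPM per kb on average, against a Runx sum of 44.4 to 92.9.

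The comparison of ILC1s with NK cells of the same organ asks which of these factors mark the ILC1 branch. In AL 7R- ILC1s over AL NK cells, 4 of the 10 were higher, where 9.94% of all genes tested were, and 1 was lower, where 10.5% were. On the log2 scale Bcl11b rose by 3.89 (standard error 0.312, adjusted p = 2.17e-10), Ikzf2 by 0.87 (adjusted p = 0.00309), Ikzf3 by 0.46 (0.00423) and Runx3 by 0.43 (0.0211), and Runx2 fell by 1.76 (2.56e-06), all in edgeR's quasi-likelihood test. The 3 smaller rises rest on 2 AL NK libraries: without AL NK replicate 1, Ikzf2, Ikzf3 and Runx3 had adjusted p-values of 0.136, 0.151 and 0.0589 and 2 of the 10 were called, and Runx3 also lost its call without AL NK replicate 2 (0.257) or AL 7R- ILC1 replicate 2 (0.0524).

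In AL 7R+ ILC1s over AL NK cells, 2 of the 10 were higher (7.96% of all genes) and 1 was lower (7.61%). Bcl11b rose by 3.77 on the log2 scale (adjusted p = 7.02e-10) and Ikzf2 by 2.78 (1.33e-10), while Runx2 fell by 0.78 (0.0324; edgeR). The Runx2 call was lost without either AL NK library (adjusted p = 0.0749 and 0.235) and without AL 7R+ ILC1 replicate 1 or 2 (0.0829 and 0.0961), with the sign kept.

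In the marrow, BM iILC1s over BM NK cells, 3 of the 10 were higher (6.55% of all genes) and none was lower (5.55%); Cbfb had an unadjusted p under 0.05 in that direction (-0.33, adjusted p = 0.147). Ikzf2 rose by 3.06 on the log2 scale (standard error 0.174, adjusted p = 7.18e-13) and Bcl11b by 2.58 (standard error 0.252, adjusted p = 2e-08; edgeR). Bcl11a was called at an adjusted p of 0.0296 on 27 summed counts in BM iILC1s against 2 in BM NK cells, a depth-scaled ratio of 14.7 with a 95% exact binomial interval of 3.7 to 128 that covers counting error only. Its adjusted p was 0.176 when BM iILC1 replicate 1 was left out, and 0.138 and 0.141 when BM NK replicate 1 or 2 was. BM iILC1 replicate 1, which held 17 of the 27 counts, was also the highest BM iILC1 library in several markers of plasmacytoid dendritic cells, singled out here after their values were seen. Siglech was at 19.2, 0.393 and 0.799 CPM in BM iILC1 replicates 1, 2 and 3, against 0 to 1.62 CPM in BM NK cells. Spib was at 10.2, 0.589 and 0.998 CPM in BM iILC1s, against 0.834 to 3.01 CPM in BM NK cells, and Ccr9 at 20.2, 5.11 and 0.998 CPM, against 0.202 to 0.708 CPM. Pacsin1, another of these markers, was at 11.2, 5.70 and 11.8 CPM in BM iILC1s, against 0.177 to 0.607 CPM in BM NK cells. The whole list of 8 such markers, most of it Irf8 and Tcf4, summed to 287, 237 and 211 CPM in BM iILC1s, against 575 to 614 CPM in BM NK cells. Summed B cell markers were at 469 to 502 CPM in BM iILC1s, against 357 to 386 CPM in BM NK cells. Summed myeloid markers were at 194, 1454 and 173 CPM in BM iILC1s, against 9.17, 20.5 and 196 CPM in BM NK cells. The part of these cells in the Bcl11a result was not tested.

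In edgeR, none of the 10 was called for a difference between liver and marrow in the ILC1 over NK effect, taken as AL 7R+ ILC1s over AL NK cells minus BM iILC1s over BM NK cells, where 1.35% of all genes tested were called with a larger effect in liver and 1.74% with a smaller one. At an unadjusted p under 0.05 there were 2, Bcl11b (difference 1.19 on the log2 scale, adjusted p = 0.114) and Bcl11a (adjusted p = 0.171). DESeq2 called 1 of the 10, Bcl11b (1.17, adjusted p = 0.0311). The Bcl11b value turned on 1 library, since without AL NK replicate 1 the difference was 2.61 (adjusted p = 0.000721). In that library Bcl11b was at 10.8 CPM and Itga1, the CD49a gene, at 6.13 CPM, against 2.64 and 0.480 CPM in AL NK replicate 2, and the part of Itga1-expressing cells in the result was not tested.

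BM NK cells over AL NK cells compared NK cells of marrow and liver. In edgeR, Zeb2, a factor of terminal NK maturation, was lower in BM NK cells (log2 fold change -1.35, adjusted p = 0.02). Organ and maturation state therefore cannot be told apart in this pair. DESeq2 called none of the 10. EdgeR called none either, where it called 1.01% of all genes higher in BM NK cells and 1.57% lower. In edgeR, 1 of the 10 (Ikzf1, log2 fold change -0.29, adjusted p = 0.308) had an unadjusted p under 0.05. Without AL NK replicate 1, Bcl11b was called higher in BM NK cells (2.00, adjusted p = 0.00817).

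Within the adult liver, AL 7R+ ILC1s over AL 7R- ILC1s differed in 2 of the 10, both higher (3.06% of all genes), with none lower (2.22%) in edgeR. DESeq2 called Ikzf3 lower as well (-0.31, adjusted p = 0.0447; edgeR -0.32, adjusted p = 0.0612). In edgeR, Ikzf2 rose by 1.91 on the log2 scale (standard error 0.154, adjusted p = 1.73e-09) and Runx2 by 0.98 (standard error 0.221, adjusted p = 0.00593). Both calls were kept in all 31 alternatives with a fit of their own. Bcl11b, at 96.7 ± 14.4 CPM in AL 7R+ ILC1s and 105 ± 12.8 CPM in AL 7R- ILC1s (SD, n = 3 and 4), differed by -0.12 on the log2 scale, less than its standard error.

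AL 7R+ ILC1s over BM iILC1s, both with abundant Il7r transcript, differed in 1 of the 10 that was higher (3.84% of all genes) and 1 that was lower (4.23%). In edgeR, Runx3 rose by 0.56 on the log2 scale (adjusted p = 0.00392) and Ikzf2 fell by 0.72 (adjusted p = 0.00248). Bcl11b had a log2 fold change of 0.60 that was not called in edgeR (adjusted p = 0.105) and was called in DESeq2 (adjusted p = 0.0396), beside the higher T cell markers of BM iILC1s given above.

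FL G1-ILCs over AL 7R- ILC1s set fetal against adult liver cells, both with Il7r at 4.27 CPM or less. Their CD49a and CD49b gates differed. Per the study's methods both livers were dissociated mechanically, and Percoll separation is described for adult liver. The study also reports a high proliferative status of FL G1-ILCs. Age, gate, preparation and proliferation cannot be told apart here. Among the 10, 2 were higher (22.4% of all genes) and 3 were lower (20.1%). In edgeR, Ikzf2 rose by 0.86 on the log2 scale (adjusted p = 7.69e-05) and Cbfb by 0.45 (0.00663). Bcl11b fell by 1.92 (8.74e-08), Runx2 by 1.25 (0.000224) and Ikzf1 by 0.62 (7.91e-05) in the same test. Ikzf3 (-0.24, adjusted p = 0.0518) and Runx1 (-0.37, adjusted p = 0.0768) lay just outside the threshold. Ikzf3 was called with DESeq2 (adjusted p = 0.0222), RLE size factors (0.028), a stricter filter (0.029) and a replicate block (0.0457). It was also called with all 25 libraries separate (0.0142) and with only the groups compared (0.0248). Runx1 was called with all 25 libraries separate (adjusted p = 0.0245) and with only the groups compared (0.02), and not with DESeq2 or RLE size factors.

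LPL ILC1s over AL 7R+ ILC1s, groups of gut and liver, differed in 6 of the 10, with 4 higher (24.8% of all genes) and 2 lower (26.2%). The gates of these groups differed too. Per the study's methods, liver was dissociated mechanically, while gut was incubated with EDTA and then digested with collagenase. Organ, gate and dissociation cannot be told apart here. Ikzf2 rose by 2.83 on the log2 scale (standard error 0.155, adjusted p = 2.65e-14) and Runx2 by 1.46 (standard error 0.219, adjusted p = 3.69e-06), while Ikzf1 fell by 2.20 (standard error 0.119, adjusted p = 2e-14) and Bcl11b by 1.41 (standard error 0.212, adjusted p = 3.84e-06; edgeR). Bcl11a, with 40 summed counts against 7, was higher at a depth-scaled ratio of 7.14 (95% exact binomial interval 3.16 to 18.9, counting error only; adjusted p = 0.0096). Summed plasmacytoid dendritic cell markers, mostly Irf8 in LPL ILC1s, were at 1650 to 2200 CPM there, against 237 to 287 CPM in AL 7R+ ILC1s. Ccr9 was at 31.8 to 64.5 against 2.43 to 5.87 CPM, and Siglech at 0 to 1.94 against 0 to 0.206 CPM. Summed B cell markers were at 496 to 601 against 563 to 623 CPM. The part of such cells in the Bcl11a result was not tested. The Ikzf3 call (0.24, adjusted p = 0.0436) was lost without any 1 of the 3 AL 7R+ ILC1 libraries (adjusted p = 0.0569 to 0.12), without LPL ILC1 replicate 1 (0.156), and with no filter on low counts (0.07, adjusted p = 0.758).

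The 4 LPL libraries differed in Il22, the cytokine gene of ILC3s, so it was set beside the members. Il22 was at 156, 192, 22.9 and 53.2 CPM in LPL ILC1 replicates 1 to 4. Ikzf2 in the same 4 libraries was at 755, 660.5, 637 and 858 CPM, and Ikzf1 at 57.2, 92.6, 92.5 and 93.4 CPM. The part of ILC3s in these levels was not tested. Leaving out any 1 of these 4 libraries kept the calls of Ikzf2, Ikzf1, Runx2 and Bcl11b.

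SG G1-ILCs, with 2 libraries, were set against liver ILC1s and liver NK cells. Their gate differed from those of the liver groups, and salivary glands were digested with collagenase while liver was dissociated mechanically. Organ, gate and dissociation cannot be told apart here either. Over AL 7R- ILC1s, 2 of the 10 were higher (17.8% of all genes) and 3 were lower (14.6%): Runx2 rose by 1.17 on the log2 scale (adjusted p = 0.000586) and Runx3 by 0.67 (0.000187), while Bcl11b fell by 3.40 (1.14e-09), Ikzf1 by 1.16 (1.85e-07) and Runx1 by 0.57 (0.0278; edgeR). The Runx1 call was lost without either SG G1-ILC library (adjusted p = 0.0531 and 0.247). Over AL NK cells, 2 were higher (15.1% of all genes) and 1 was lower (11.9%), with Runx3 up by 1.10 on the log2 scale (adjusted p = 3.16e-06), Ikzf2 up by 1.10 (0.000943) and Ikzf1 lower (log2 fold change -1.34, adjusted p = 1.26e-07; edgeR). Fitted on these 2 groups alone, 6 of the 10 were called. Bcl11b in SG G1-ILCs, at 10.7 and 9.10 CPM, lay between the 10.8 and 2.64 CPM of the AL NK libraries, and without AL NK replicate 1 it was called higher (1.89, adjusted p = 0.00208). Summed myeloid markers were at 489 and 576 CPM in SG G1-ILCs, against 11.7 to 37.2 CPM in AL 7R- ILC1s and 4.32 and 7.58 CPM in AL NK cells, and their part in these results was not tested.

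**Figure D4:**
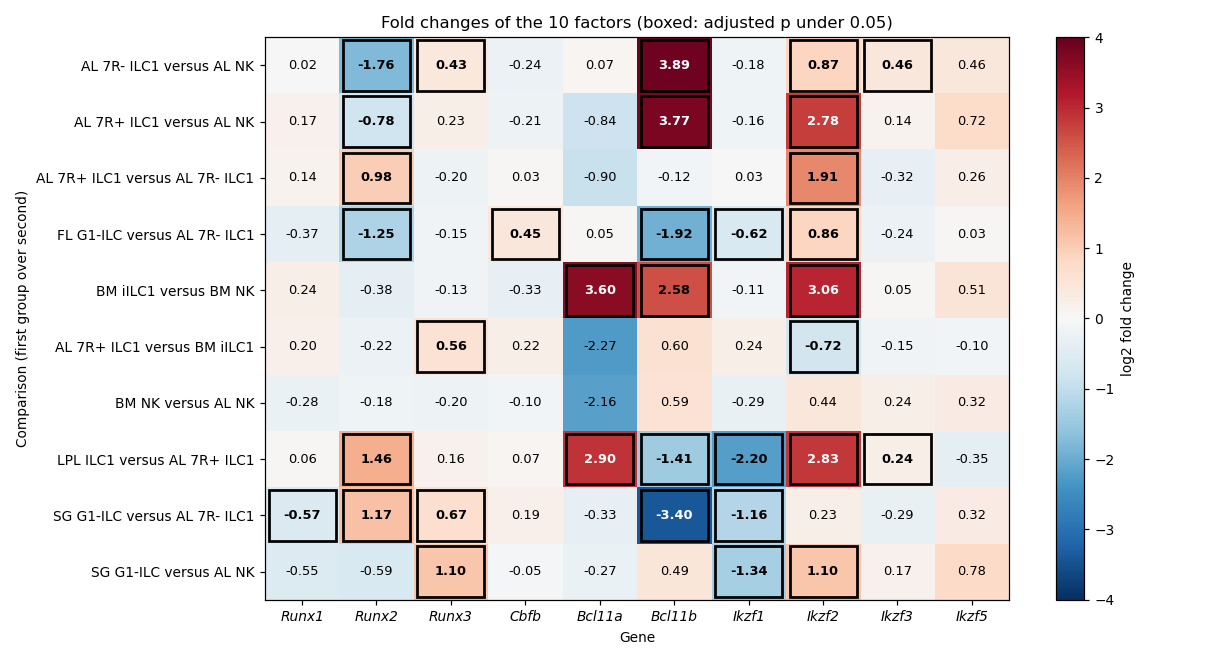
Log2 fold change of each of the 10 genes in the 10 pairwise comparisons (first group over second, red higher and blue lower in the first), with boxed cells at an adjusted p under 0.05 in edgeR's quasi-likelihood test. Boxes gather in the columns of Ikzf2, Bcl11b and Runx2, and Ikzf5 has none.

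Comparisons that share a group are not independent, and AL NK cells, AL 7R- ILC1s and AL 7R+ ILC1s each serve in several. Over the 10 pairs the 10 genes gave 34 calls. Of these 27 were kept in every alternative with a fit of its own, and all 34 kept their sign there. Most of these alternatives leave out a library, mostly of a group outside the comparison.

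Genes that work with these factors were counted from lists, beside the median log2 fold change of each list and of all genes tested. All list calls are from the edgeR test and all changes are on the log2 scale. AL 7R+ ILC1s over AL 7R- ILC1s had 7 higher and 1 lower of 10 lymphoid partners in T cell and ILC development. There 3.06% of all genes were higher and 2.22% lower (median of the list 0.627, of all genes -0.00326). Tcf7 (TCF1), which acts before Bcl11b in T cell commitment, rose by 3.16 and its relative Lef1 by 1.92, and Nfil3, needed for ILC and NK development, fell by 0.63. LPL ILC1s over AL 7R+ ILC1s had 7 higher and 1 lower, where 24.8% and 26.2% of all genes were (median 0.83, all genes -0.0188). In that comparison Nfil3 rose by 2.36, the chromatin organizer Satb1 by 1.87, and Gata3, the factor of ILC2s and helper T cells, by 0.85. Tox, which NK and ILC development needs, fell by 0.95. In AL 7R- ILC1s over AL NK cells 2 were higher and 5 lower, where 9.94% and 10.5% of all genes were (median -0.613, all genes 0.0114). Among the lower was Zeb2, a factor of terminal NK maturation, which fell by 7.26.

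The shares of all genes that were higher and lower stand beside the counts of the same 10 genes in the other comparisons. AL 7R+ ILC1s over AL NK cells had 2 higher and 4 lower (7.96% and 7.61% of all genes), and BM iILC1s over BM NK cells 2 and 2 (6.55% and 5.55%). AL 7R+ ILC1s over BM iILC1s had 2 and 4 (3.84% and 4.23%), and BM NK cells over AL NK cells 0 and 1 (1.01% and 1.57%). FL G1-ILCs over AL 7R- ILC1s had 3 and 5 (22.4% and 20.1%), SG G1-ILCs over AL 7R- ILC1s 4 and 2 (17.8% and 14.6%), and SG G1-ILCs over AL NK cells 2 and 6 (15.1% and 11.9%). In the last of these, Id2, which holds E proteins back from DNA in all ILCs, fell by 0.99 and Lef1 by 3.43. Id2 was also lower in SG G1-ILCs than in AL 7R- ILC1s by a log2 fold change of -1.70.

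Of 9 genes known as Runx targets in lymphocytes, 7 were tested, Cd8b1 and Il4 being too low. Itgae, which encodes the CD103 integrin chain that Runx3 is known to promote in CD8 T cells, averaged 724 CPM in SG G1-ILCs, where Runx3 was highest, against 5.06 CPM in AL 7R- ILC1s and 11.1 CPM in AL NK cells (log2 fold change 7.04 and 6.02). It averaged 2.19 CPM in LPL ILC1s, which had Runx3 at 249.7 CPM. Prf1 (perforin) fell in all 3 comparisons of ILC1s with NK cells, by 2.08 in AL 7R- ILC1s, by 2.48 in AL 7R+ ILC1s and by 2.01 in BM iILC1s. Over the list, 3 were higher and 1 lower in each of those 3 comparisons, where 6.55% to 9.94% of all genes were higher and 5.55% to 10.5% lower. In LPL ILC1s over AL 7R+ ILC1s 3 were higher and 3 lower (24.8% and 26.2% of all genes), with Ifng (interferon-gamma) up by 2.86 and Zbtb7b (ThPOK) down by a log2 fold change of -2.64. SG G1-ILCs had 3 higher and 2 lower over AL 7R- ILC1s (17.8% and 14.6%) and 2 of each over AL NK cells (15.1% and 11.9%), and each remaining comparison had 3 calls or fewer.

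Of the 9 Groucho and ETO corepressors, which Runx proteins recruit, 7 were tested. Tle2 rose by 4.46 in AL 7R- ILC1s over AL NK cells, by 3.78 in AL 7R+ ILC1s over AL NK cells, by 2.72 in BM iILC1s over BM NK cells and by 5.82 in SG G1-ILCs over AL NK cells. Its level averaged 76.7 CPM in SG G1-ILCs and 29.8 CPM in AL 7R- ILC1s, against 1.32 CPM in AL NK cells. The list had 2 higher and 2 lower in AL 7R- ILC1s over AL NK cells (9.94% and 10.5% of all genes), 4 and 1 in SG G1-ILCs over AL 7R- ILC1s (17.8% and 14.6%), and 2 and 3 in LPL ILC1s over AL 7R+ ILC1s (24.8% and 26.2%), and 3 calls or fewer in each other comparison. Cbfa2t3 (ETO2) averaged 8.23 CPM in LPL ILC1s and 9.60 CPM in SG G1-ILCs, against 25.1 CPM in AL 7R+ ILC1s and 59.9 CPM in AL 7R- ILC1s.

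All 17 NuRD, Sin3 and CtBP subunits, the corepressors of Ikaros and Bcl11 proteins, were tested. FL G1-ILCs over AL 7R- ILC1s had 8 higher and 3 lower, where 22.4% and 20.1% of all genes were (median 0.229, all genes -0.0612), including the histone-binding Rbbp7 (1.36) and Rbbp4 (0.89) and the deacetylase Hdac1 (0.97). The NuRD remodeller Chd3 fell there by 1.65 and its paralog Chd4 rose by 0.58. LPL ILC1s over AL 7R+ ILC1s had 6 higher and 3 lower of the 17, where 24.8% and 26.2% of all genes were, and Chd3 fell by 1.00 and Chd4 rose by 0.46. AL 7R- ILC1s over AL NK cells had 4 higher and 5 lower (9.94% and 10.5% of all genes), and each other comparison 5 calls or fewer. Of the 4 genes of the ubiquitin ligase that degrades Ikaros and Aiolos under lenalidomide in human cells, Crbn (cereblon) rose in AL 7R- ILC1s, AL 7R+ ILC1s and SG G1-ILCs over AL NK cells (0.92, 0.81 and 0.78) and fell in FL G1-ILCs over AL 7R- ILC1s by 0.86, and this list had 2 calls or fewer in every comparison of a pair.

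Finally, the genes whose 8 group means in log2 CPM ran most like those of the 3 most variable members were listed among genes averaging at least 3 in log2 CPM, as a description over 8 points that share libraries. For Ikzf2 they were Itgb3 (integrin beta 3; Pearson r = 0.974), Rora (0.95), a nuclear receptor of ILC2s and helper ILCs, and Il2ra (CD25; 0.941). Rora averaged 1740 CPM in LPL ILC1s, 193 CPM in BM iILC1s and 125 CPM in AL 7R+ ILC1s, against 25 CPM in AL NK cells. For Runx2 they were Crtam (0.981), an adhesion receptor of cytotoxic lymphocytes, Ets1 (0.971), whose product binds DNA beside Runx proteins, and Tprgl (0.966). For Bcl11b they were Vps37c (0.978), Slc2a8 (0.968) and Tasp1 (0.953).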

How the data were processed

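The authors sequenced RNA of sorted cells (SMART-seq HT libraries), and per the submitters' notes used fastp 0.23.0 for trimming, HISAT2 2.1.0 for alignment (mm10) and Subread 1.6.5 (featureCounts) for counting. The deposited table holds raw counts per Ensembl gene for 25 libraries, and its annotation release, strand and multi-mapping settings are not given in the sources used here. Names and positions came from GENCODE vM21 (GRCm38, the assembly of mm10), and 935 identifiers with 0.104% of the counts had no match.

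Genes were filtered with filterByExpr (minimum count 10), scaled by TMM and fitted in edgeR 4.0.16 (R 4.3.3) in 1 quasi-likelihood model of all 8 groups, which lets the groups of 2 samples borrow the spread of the others. Calls are at an adjusted p under 0.05 over all 14123 genes. CPM are TMM-scaled, and SDs are over samples. Intervals cover counting error only. Alternatives were DESeq2 1.42.0, RLE size factors, other filters, a replicate block, only the groups compared, all 25 libraries, stricter thresholds and leaving out each library. The procedure was tested on simulated data. The members, gene lists and comparisons were chosen with earlier results of these data known. The genes named were set by rule: the 10 members, Ikzf4, genes of the lists that were called in a comparison, and, for the 3 members with the widest range of group means, the 3 genes with the best correlated group means. Pstk, the cell type markers set beside a result, and the levels shown for Itgae, Tle2, Cbfa2t3 and Rora were picked after their values were seen.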

Additional observations from a re-analysis of the deposited data

Results flagged for a closer look

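One sample stood apart within its group. Ikzf1 in LPL ILC1 replicate 1 was at 57.2 CPM, against 92.5 to 93.4 CPM in the other 3 LPL ILC1 libraries, a gap to its nearest neighbour that exceeds Dixon's limit for 4 samples. It was 1 of 20 sets of a gene and a group of 4 samples that were examined, and chance alone sets apart about 1 in 20. In the same library Runx2 was at 125 CPM and Ikzf3 at 439 CPM, the highest of the 4 for each.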

How the results depend on the processing

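The 34 calls of the members kept their sign in all 1050 values from alternatives with a fit of their own, and 27 were called in each of those. Most of these alternatives leave out 1 library, mostly of a group outside the comparison, where the fold change can move only a little. The 1050 values are thus not independent checks. Requiring a log2 fold change over 1 left 2 members in AL 7R- ILC1s over AL NK cells, 1 in AL 7R+ over AL 7R- ILC1s, 2 in FL G1-ILCs over AL 7R- ILC1s, 0 in AL 7R+ ILC1s over BM iILC1s and 3 in SG G1-ILCs over AL 7R- ILC1s, a loss that follows from the threshold itself. For the liver minus marrow difference, DESeq2 called 1 and no filter on low counts 1 (Bcl11b), against 0. Fitting only the groups compared called 6 in SG G1-ILCs over AL NK cells, against 3. The cause was not tested. Leaving out 1 library gave 2 to 5 members in AL 7R- ILC1s over AL NK cells, 0 to 1 in BM NK cells over AL NK cells and 0 to 1 for the liver minus marrow difference. Over all genes, BM NK cells over AL NK cells gave 365 calls, against 627 with DESeq2, 657 with only those groups, and 125 at the fewest with 1 library left out.

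Among libraries of different groups, 74 same-numbered pairs had deviations correlated at -0.0808 to 0.0453, none over 0.1. Expression gave no sign of pairing by number, but such correlations cannot tell whether same-numbered libraries shared animals or a sort. With the number as a replicate block, FL G1-ILCs over AL 7R- ILC1s had 6 members called, against 5, and SG G1-ILCs over AL 7R- ILC1s 5, with Ikzf3 gained (-0.34, adjusted p = 0.0373) and Runx1 not called (-0.50, adjusted p = 0.062). The depth limits Bcl11a, at 0 to 17 counts a library.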
